A study of Mus musculus with 8 samples.

Results

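The vacuolar proton pump (V-ATPase) is a rotary machine that acidifies lysosomes, endosomes and secretory vesicles. Its V1 sector in the cytosol hydrolyses ATP in a ring of A and B subunits and turns a central rotor of D and F, while peripheral stalks of C, E and G hold the ring still and H governs its activity. The rotor drives the ring of proteolipid c subunits in the membrane sector V0, where the d subunit joins the rotor to the ring and protons pass along the a subunit. The acidified lumen is needed by lysosomal hydrolases, and on the lysosome surface the pump takes part in amino acid sensing by the kinase complex mTORC1.

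The 10 subunit genes described here were selected by symbol from 2 tables of gene expression in mouse embryonic stem cells (mESCs). They are Atp6v1a, Atp6v1b2, Atp6v1c1, Atp6v1d, Atp6v1e1, Atp6v1f, Atp6v1g1 and Atp6v1h of the V1 sector and Atp6v0c and Atp6v0d1 of the V0 sector. All 10 were found in both tables, among 13056 genes in the table of sorted cells and 14319 genes in the table of overexpressing cells.

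RNA-seq had been done on 8 samples in 4 conditions, with 2 samples per condition. In the first experiment, KLF3-GFP-positive mESCs were compared with KLF3-GFP-negative mESCs (below also positive and negative cells) to learn how cells that hold KLF3 protein differ in their transcriptome. In the second, mESCs induced to express KLF3 (KLF3-OE) were compared with mESCs induced to express GFP (GFP-OE) to learn what KLF3 does to gene expression. All cells were from the strain cross C57BL/6(F) x 129/sv(M), are labelled with a developmental age of 3.5 days, and were grown on gelatin in serum with leukaemia inhibitory factor. Both sorted groups carried a transgene in which the N-terminal part of KLF3, without its DNA-binding domain, was fused to Emerald GFP under the CAGGS promoter, with DsRed under the EF1α promoter. Colonies with DsRed had been picked after selection in hygromycin B, so GFP reports the fusion protein and not the endogenous KLF3. From these cells 500 were sorted into each sample, and libraries were made by Smart-seq2, which amplifies full-length cDNA and does not mark the strand. Both overexpression groups came from the R26 line, which carries the doxycycline-dependent activator M2rtTA at Rosa26 and an FRT site at Col1a1. Codon-optimised Klf3 or GFP had been inserted at this site, clones had been picked after selection on feeder cells, and doxycycline had been given for 72 hours before poly(A) RNA was sequenced with a directional kit.

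Each table holds 1 FPKM value per gene and condition (fragments scaled to the length of the transcript and the size of the library), which is the authors' mean of the 2 samples. The spread between the samples and the number of reads are therefore unknown, no SD or test can stand beside a difference, and whether neighbours in an order of levels differ beyond their spread cannot be told. Differences are given in log2(FPKM + 1), a scale on which the change of low genes comes out too small, for genes whose 2 values in a table average 1 FPKM or more. A gene was counted as higher or lower when it was past a 2-fold limit on this scale, that is, a difference above 1 or below -1.

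Facts of the whole tables touch several values below. The median difference of all genes was 0.03 in the sorted cells and -0.18 in the overexpressing cells, where median-ratio scaling of the columns brought it to 0.00. The same scaling turned the split of genes past the limit in the overexpressing cells from 6.60% higher and 10.1% lower to 10.4% higher and 6.25% lower. Klf3 itself had 107 FPKM in negative and 122 FPKM in positive cells, where the fusion transcript holds part of its sequence. It had 58.7 FPKM in GFP-OE and 47.8 FPKM in KLF3-OE cells, and as reads of a codon-optimised transgene need not align to the native gene, this value does not check the labels. The Y-linked gene Eif2s3y stood at 30.9 FPKM in GFP-OE and 1.67 FPKM in KLF3-OE cells, and Ddx3y and Uty, also on the Y chromosome, had 3.34 and 3.56 FPKM in GFP-OE and the table's lowest value, 0.1 FPKM, in KLF3-OE cells. Clone and insert cannot be told apart in the values of that experiment.

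Promoter sequences are shown for 3 subunits, because Atp6v1a and Atp6v0d1 hold the core letters TCACGTGA of the CLEAR element (the site read by TFEB and its relatives in promoters of lysosomal genes) and Atp6v0c, which had the largest difference of the 10 between the sorted cells, does not. The stretches are from RefSeq, build GRCm38.p6, all on the minus strand, written 5′ to 3′, and the capitals mark TCACGTGA. The stretch of Atp6v1a is chr16:44139276-44139409, that of Atp6v0d1 is chr8:105566055-105566214 and that of Atp6v0c is chr17:24169673-24169828.
Atp6v1a: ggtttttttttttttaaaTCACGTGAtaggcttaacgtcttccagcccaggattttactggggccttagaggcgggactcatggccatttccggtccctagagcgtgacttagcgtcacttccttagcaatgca
Atp6v0d1: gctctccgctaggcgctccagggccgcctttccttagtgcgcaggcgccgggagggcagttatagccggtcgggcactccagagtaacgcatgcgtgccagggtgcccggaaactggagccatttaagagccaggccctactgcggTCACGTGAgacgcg
Atp6v0c: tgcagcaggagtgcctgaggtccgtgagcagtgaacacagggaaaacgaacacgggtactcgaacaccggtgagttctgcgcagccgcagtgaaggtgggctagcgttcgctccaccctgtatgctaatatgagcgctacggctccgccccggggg

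The RefSeq windows searched run from 250 bases before to 50 bases after the start site of a gene, and 6 of the 10 subunits were matched (Atp6v0c, Atp6v0d1, Atp6v1a, Atp6v1d, Atp6v1e1 and Atp6v1f). TCACGTGA reads the same on both strands and was in 2 of these 6 windows, against 1.89% of the 11200 windows of genes compared in either table. In Atp6v0d1 its first letter was at position -4 from the RefSeq start site, and in Atp6v1a at position -132. The RefSeq start site of Atp6v1a lies 446 bases inside the 5′ end of the gene in the tables. Counted from that 5′ end, the whole stretch shown lies within the gene, and TCACGTGA is downstream of the start. Whether the letters are in a promoter of Atp6v1a thus depends on which start is taken. The shorter E-box CACGTG, which lies within TCACGTGA, was in the same 2 windows and in 10.2% of all. CACCC, the core of the letters bound by KLF factors, searched on both strands, was in 3 of 6 windows (Atp6v0c, Atp6v0d1 and Atp6v1d) against 63.6% of all, and the longer CCACACCC in 0 of 6 against 3.65%. The GC box GGGCGGG, on either strand, was in the window of Atp6v1f and in 47.4% of all. These are matches of letters, not measured binding sites.

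In KLF3-GFP-positive compared with KLF3-GFP-negative mESCs, all 10 subunits had a higher level, and 5 of them were above the 2-fold limit (Atp6v0c, Atp6v1a, Atp6v0d1, Atp6v1g1 and Atp6v1d). Of all 9212 genes compared, 13.8% were above this limit, 8.32% were below the opposite one, where none of the 10 subunits was, and 51.7% had a difference above 0. The median difference of the subunits was 1.02, against 0.03 for all genes. Their FPKM summed to 1130 over the negative and 1802 over the positive column, which is 0.125% and 0.190% of the summed FPKM of all genes. The smallest difference, 0.16 for Atp6v1f, was still above the median of all genes.

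**Figure D1:**
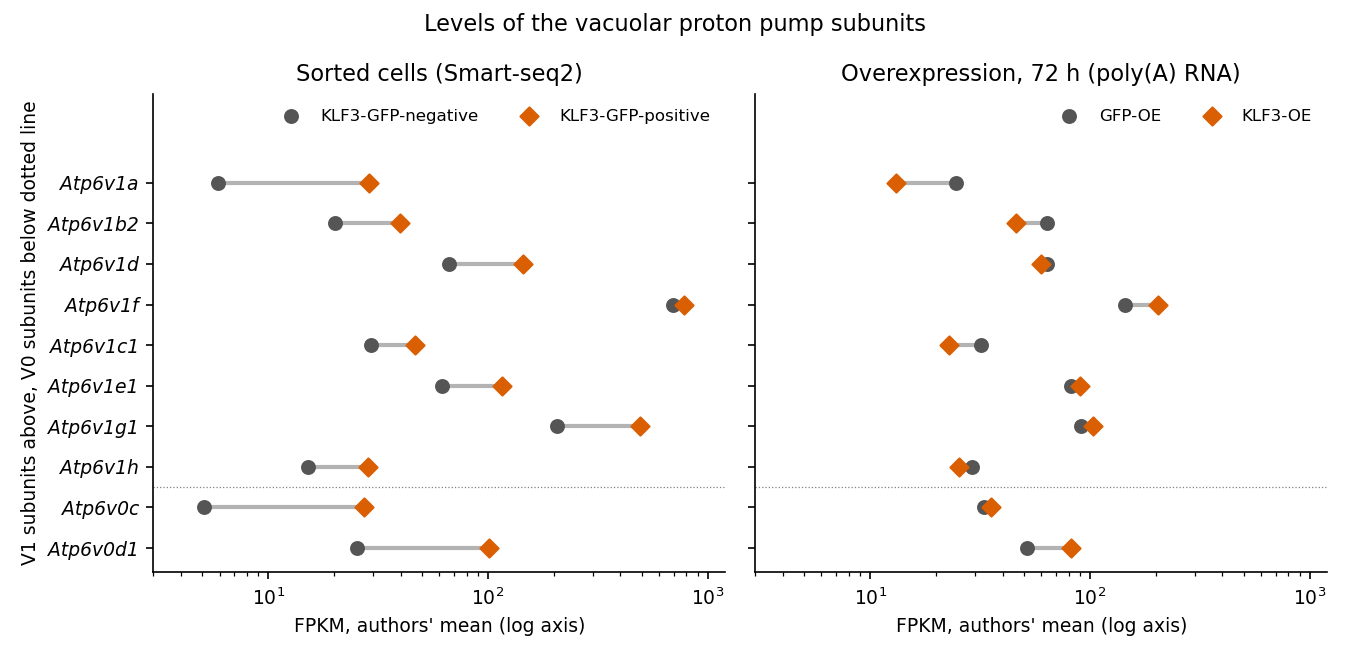
FPKM (log axis) of the 10 subunits, V1 above and V0 below the dotted line, with a circle for the control condition and a diamond for the other, each the authors' mean of 2 samples without error bars because the spread is unknown. In sorted cells every diamond lies to the right of its circle, and in overexpressing cells 5 of 10 do; over the settings tried Atp6v0d1 stayed to the right and Atp6v1a, Atp6v1b2 and Atp6v1c1 to the left, and the other 6 changed side under at least 1.

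The catalytic genes had some of the lower levels of the 10 in the sorted cells. Atp6v1a, the A subunit that holds the ATP site (ENSMUSG00000052459, chr16:44085402-44139705 of mm10, minus strand), had 5.93 FPKM in negative and 28.7 FPKM in positive cells. This 4.84-fold ratio, a difference of 2.10, placed it above 96.6% of all genes. Atp6v1b2, the B subunit found in most tissues (ENSMUSG00000006273, chr8:69088646-69113711, plus strand), had 20.1 and 39.9 FPKM, a 1.98-fold ratio and a difference of 0.95 that stayed just below the limit. The level of the A gene was thus farther below that of the B gene in KLF3-GFP-negative than in positive cells. The assembled ring holds equal numbers of both subunits, but these are levels of RNA, and subunit protein was not measured.

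The rotor genes differed from each other. Atp6v1d, the axle of the rotor (ENSMUSG00000021114, chr12:78842989-78861638, minus strand), had 66.7 FPKM in negative and 144 FPKM in positive cells, a difference of 1.10, just above the limit, and 0.99 after quantile normalization. Atp6v1f, the small F subunit (ENSMUSG00000004285, chr6:29467718-29470512, plus strand), had 695 and 777 FPKM, a ratio of 1.12. It was the most abundant of the 10 in both sorted groups and made up 61.5% of their summed FPKM in negative and 43.1% in positive cells. A processed pseudogene, AC169506.3, is 97.5% identical to its transcript over 360 bases, so its value is uncertain where reads could be shared.

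Among the peripheral stalk genes, Atp6v1g1 stood out. Atp6v1g1, the G subunit (ENSMUSG00000039105, chr4:63544772-63550750, plus strand), had 205 FPKM in negative and 493 FPKM in positive cells, a difference of 1.26. The pseudogene Gm13453 is 99.4% identical to its transcript over 357 bases, so this value is uncertain as well. Atp6v1e1, the E subunit (ENSMUSG00000019210, chr6:120795245-120822685, minus strand), had 61.9 and 115 FPKM, a difference of 0.89. Atp6v1c1, the C subunit, which leaves the pump when V1 and V0 come apart (ENSMUSG00000022295, chr15:38661904-38692443, plus strand), had 29.4 and 46.5 FPKM, a difference of 0.64. Atp6v1h, the regulatory H subunit (ENSMUSG00000033793, chr1:5070018-5162529, plus strand), had 15.2 and 28.4 FPKM, a difference of 0.85. The exons of Atp6v1e1 share 32 bases and those of Atp6v1h 127 bases with Slc25a18 and Rgs20 on the opposite strand, which is 0.779% and 1.30% of their exonic bases.

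Both V0 subunits of the 10 were above the limit. Atp6v0c, the proteolipid of the proton-carrying ring (ENSMUSG00000024121, chr17:24163866-24169702, minus strand), had 5.10 FPKM in negative and 27.3 FPKM in positive cells. Its 5.35-fold ratio and difference of 2.21 were the largest of the 10. Its transcript is 97.2% and 99.8% identical over 465 bases to the pseudogenes Atp6v0c-ps1 and Atp6v0c-ps2, so its level is uncertain. Atp6v0d1, the d subunit that couples rotor and ring (ENSMUSG00000013160, chr8:105524465-105566047, minus strand), had 25.4 and 102 FPKM, a 4.0-fold ratio and a difference of 1.96. No near-identical copy of Atp6v0d1 was found at the same limits, 90% identity over 300 bases.

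The order of levels was much the same in both sorted groups (Spearman's rho 0.98 over the 10 subunits, which share the libraries and are given as a description). Atp6v1f, Atp6v1g1, Atp6v1d and Atp6v1e1 held the top 4 places in both, and Atp6v0c was lowest in both. The highest level was 136 times the lowest in negative and 28.4 times in positive cells, and the SD of the log2 levels over the 10 genes was 2.12 and 1.71. The subunits were thus closer to each other in the positive cells, as the low genes Atp6v1a and Atp6v0c differed most and the highest, Atp6v1f, least. The ratios are those of Atp6v1f to Atp6v0c. The levels of both, and of Atp6v1g1, are uncertain because of their pseudogenes, so the size of this narrowing is uncertain as well. Every subunit was in the upper 2 of 5 equal groups of genes by mean level, in which 16.4% and 13.6% of genes were above the 2-fold limit, close to the 13.8% of all genes.

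When KLF3 was overexpressed, the 10 subunits did not share a direction. None was past the 2-fold limit, against 6.6% of 11179 genes above it and 10.1% below it. Of the 10, 5 had a higher and 5 a lower level in KLF3-OE than in GFP-OE cells, where 40.5% of all genes had a difference above 0. Their median difference was 0.004, against -0.18 for all genes, and 6 of 10 were above that median. Level matters for this comparison. By mean level 6 of the subunits were in the highest of 5 equal groups of genes. Genes of that group had a median of 0.31, with 14.6% above the limit and 4.11% below it. The other 4 were in the next group, with a median of -0.13. With median-ratio scaling the median of the subunits was 0.21 and that of all genes 0.00. After quantile normalization the median of the subunits was -0.11 and that of all genes -0.03. After removal of the trend with genomic span the medians were -0.20 and -0.22, so the subunits lay close to all genes there. Their FPKM summed to 615 in GFP-OE and 681 in KLF3-OE cells, but their share of the summed FPKM of all genes was lower, 0.100% and 0.0815%, as the columns summed to 612621 and 834882.

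**Figure D2:**
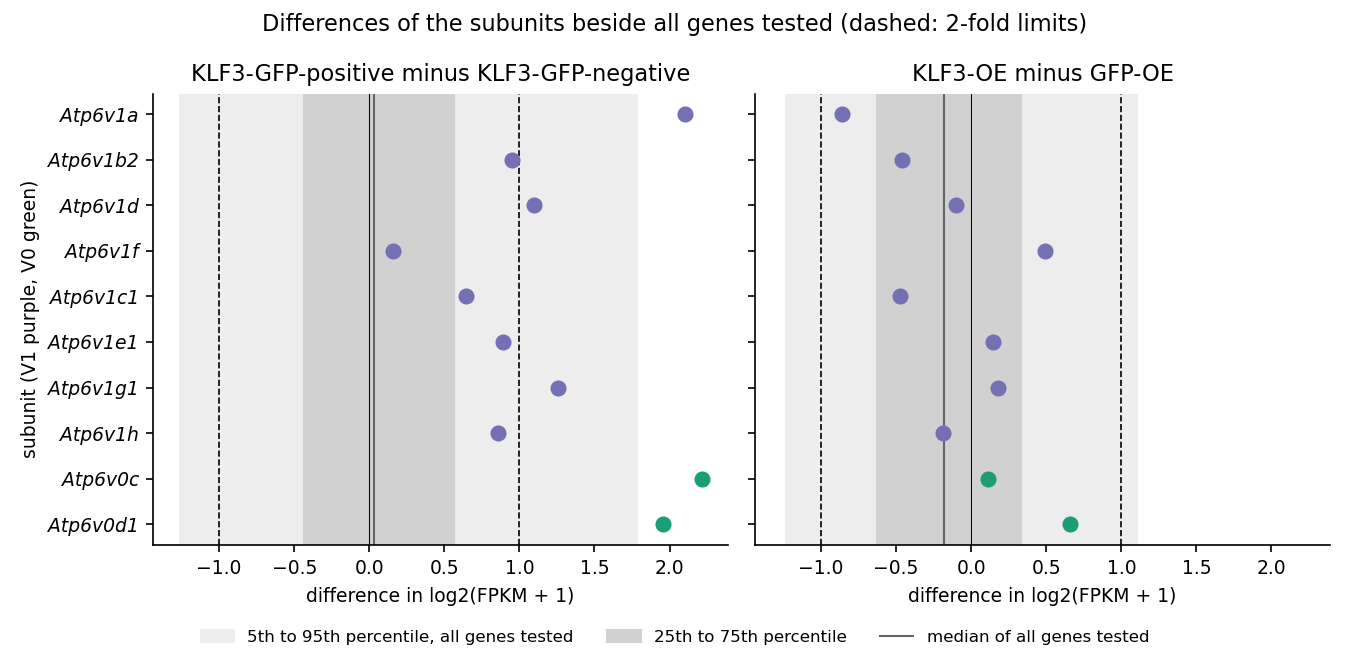
Difference in log2(FPKM + 1) of each subunit (points, V1 purple and V0 green) in both experiments, over bands that hold the middle 50% and the 5th to 95th percentiles of all genes compared, with dashed lines at the 2-fold limits. Atp6v0c, Atp6v1a and Atp6v0d1 lie to the right of the 95th percentile, 1.78, in sorted cells, and no subunit passes a dashed line in overexpressing cells, apart from Atp6v0d1 when median-ratio scaling and removal of the span trend are combined.

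The catalytic genes were lower in KLF3-OE cells. Atp6v1a had 24.6 FPKM in GFP-OE and 13.1 FPKM in KLF3-OE cells, a ratio of 0.533 and a difference of -0.86, the lowest of the 10. Atp6v1b2 had 63.8 and 46.0 FPKM, a difference of -0.46. Together the A and B genes summed to 88.4 FPKM in GFP-OE and 59.1 FPKM in KLF3-OE cells. Their difference was below 0 under all settings tried, from -0.91 to -0.40 for Atp6v1a and from -0.58 to -0.21 for Atp6v1b2. Atp6v1c1 was also lower, with 32.0 and 22.8 FPKM, a difference of -0.47 that ranged from -0.49 to -0.14. Among all genes 14.9% had a difference below that of Atp6v1a, 33.9% below that of Atp6v1b2 and 33.4% below that of Atp6v1c1.

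Atp6v0d1 was the subunit with the largest positive difference in this experiment. It had 51.7 FPKM in GFP-OE and 82.1 FPKM in KLF3-OE cells, a ratio of 1.59 and a difference of 0.66, above 86.2% of all genes. The difference was above 0 under all settings, from 0.48 to 1.09, the latter above the 2-fold limit. Atp6v1f had 144 and 203 FPKM, a difference of 0.49 that was -0.16 after removal of the trend with genomic span. It remained the most abundant of the 10, with 23.5% and 29.8% of their summed FPKM.

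The other 5 subunits differed little, and the sign of each depended on the setting. Atp6v1g1 had 90.6 FPKM in GFP-OE and 103 FPKM in KLF3-OE cells (difference 0.18, range -0.23 to 0.39 over the settings). Atp6v1e1 had 81.7 and 90.3 FPKM (difference 0.14, range -0.10 to 0.43). Atp6v0c had 33.0 and 35.6 FPKM (difference 0.11, range -0.31 to 0.31). As deposited these 3 genes were slightly higher in KLF3-OE cells, and the next pair, of the rotor and the regulatory subunit, slightly lower. Atp6v1d had 64.0 and 59.6 FPKM (difference -0.10, range -0.27 to 0.11), and Atp6v1h had 29.1 and 25.5 FPKM (difference -0.19, range -0.19 to 0.29).

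In the overexpressing cells the highest level, that of Atp6v1f, was 5.86 times the lowest, that of Atp6v1a, in GFP-OE and 15.5 times in KLF3-OE cells. The SD of the log2 levels was 0.81 and 1.16, so the 10 genes were farther apart in KLF3-OE cells. Here too the levels of Atp6v1f, Atp6v1g1 and Atp6v0c are uncertain because of their pseudogenes. The order was again much the same in the 2 columns (rho 0.95 over the 10 subunits), with Atp6v1f, Atp6v1g1 and Atp6v1e1 in the top 3 places of both. Between the control columns of the experiments rho was 0.84. The tables were made from different kinds of library, so levels are not compared between them beyond this order.

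Genomic span went with the differences in the overexpressing cells. When all genes were split into 5 equal groups by span, their median difference was 0.35 in the shortest and -0.49 in the longest group. The short genes Atp6v1f, Atp6v1g1 and Atp6v0c (2795 to 5979 bases) are in the shortest group and had differences between 0.11 and 0.49. Atp6v1a (54304 bases), Atp6v1c1 and Atp6v0d1 are in the next to longest group, where the median was -0.44, and only Atp6v0d1 of these was above 0. Atp6v1h, the longest of the 10 with 92512 bases, had -0.19 in a group with a median of -0.49. In sorted cells the medians of the groups were between -0.03 and 0.12, and the subunits above the limit were short and long alike. The part of span in the differences of the overexpressing cells was not tested beyond the removal of its trend.

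**Figure D3:**
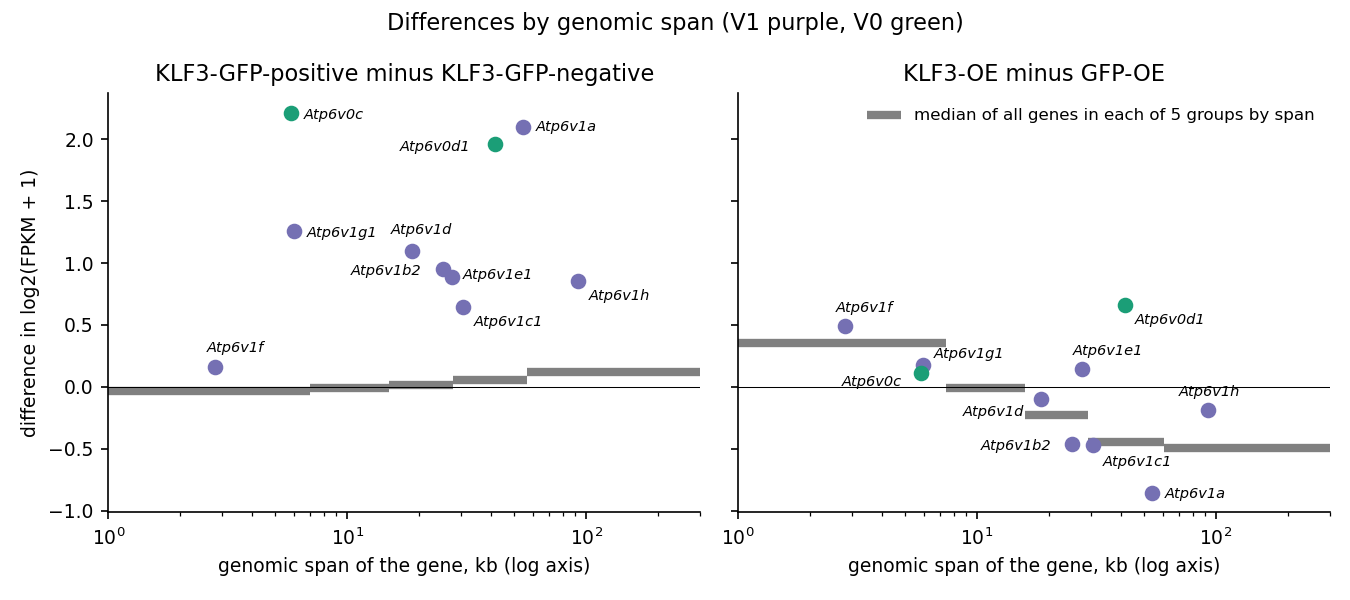
Difference in log2(FPKM + 1) against genomic span in kilobases (log axis) for the 10 subunits (V1 purple, V0 green), with grey bars at the median of all genes in each of 5 equal groups by span, drawn between 1 and 300 kb. The bars fall from 0.35 to -0.49 in overexpressing cells and lie between -0.03 and 0.12 in sorted cells, where the subunits lie above them.

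The remaining genes of the pump, 15 in a list made for this comparison, give the wider picture. Of these, 11 were in each table, while Atp6v0d2, Atp6v1b1, Atp6v1e2 and Atp6v1g3 were not listed. In sorted cells 8 of the 11 had a mean of at least 1 FPKM, with a median of 1.5. Of these 8, 7 were above the 2-fold limit and none below, against 13.8% and 8.32% of all genes. Atp6v0b, another proteolipid of the ring, had 229 FPKM in negative and 1079 FPKM in positive cells (difference 2.23). Atp6v0e, the small e subunit, had 218 and 627 FPKM (1.52), and its isoform Atp6v0e2, the only one of the 8 with a negative difference, had 2.29 and 1.37 FPKM (-0.47).

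Isoforms of the a subunit decide to which membrane the pump goes. Atp6v0a1 had 12.3 FPKM in negative and 29.7 FPKM in positive cells (difference 1.20). Atp6v0a2, an isoform of the Golgi, had 0.86 and 3.35 FPKM (1.23), and Tcirg1, the a3 isoform known from osteoclasts and lysosomes, had 2.0 and 7.40 FPKM (1.49). The renal isoform Atp6v0a4 had 0.39 and 0.1 FPKM and was too low to be compared. The accessory subunits, which bind the pump in the membrane, were also above the limit. Atp6ap1 had 4.13 and 31.6 FPKM (2.67), the largest difference of all pump genes, and Atp6ap2, known as the prorenin receptor, had 18.3 and 62.1 FPKM (1.71). The isoforms Atp6v1c2 and Atp6v1g2 were below 1 FPKM in all 4 columns.

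Taking all listed genes of a sector, V0 and V1 had different medians in both experiments. In sorted cells 7 of 8 V0 genes and 3 of 8 V1 genes were above the limit, against 13.8% of all genes. Their medians were 1.5 and 0.92. The V0 genes summed to 496 FPKM in negative and 1877 FPKM in positive cells, and the V1 genes to 1100 and 1673 FPKM. In overexpressing cells the median was 0.60 over 9 V0 genes and -0.14 over 8 V1 genes. The V0 median ranged from 0.26 to 0.79 and the V1 median from -0.20 to 0.06 over the settings. The V0 genes summed to 244 FPKM in GFP-OE and 394 FPKM in KLF3-OE cells, and the V1 genes to 531 and 564 FPKM. As a share of all FPKM the summed V0 genes were still higher in KLF3-OE cells (0.0399% and 0.0471%) and the summed V1 genes lower (0.0868% and 0.0676%). Most of the V0 sums in both experiments came from Atp6v0b and Atp6v0e, and 3 of the 9 V0 genes had a lower level in KLF3-OE cells. No test of V0 against V1 is possible on 1 mean per condition.

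In overexpressing cells 9 of the other pump genes were compared, with a median of -0.28. Of these, 1 was above and 1 below the 2-fold limit, against 6.6% and 10.1% of all genes. Atp6v0a1 had 7.41 FPKM in GFP-OE and 18.1 FPKM in KLF3-OE cells (difference 1.18), above the limit as in the sorted cells. Atp6v0a4 had 2.71 and 0.32 FPKM (-1.49). The ring and e genes Atp6v0b (72.9 and 136 FPKM, 0.89) and Atp6v0e (58.4 and 101 FPKM, 0.78) were higher in KLF3-OE cells, within the limit. Tcirg1 had 8.56 and 13.5 FPKM (0.60), Atp6v0a2 4.42 and 3.47 FPKM (-0.28) and Atp6v0e2 5.42 and 3.82 FPKM (-0.41). Both accessory genes were lower as deposited, Atp6ap1 with 29.2 and 21.8 FPKM (-0.40) and Atp6ap2 with 23.8 and 15.7 FPKM (-0.57).

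**Figure D4:**
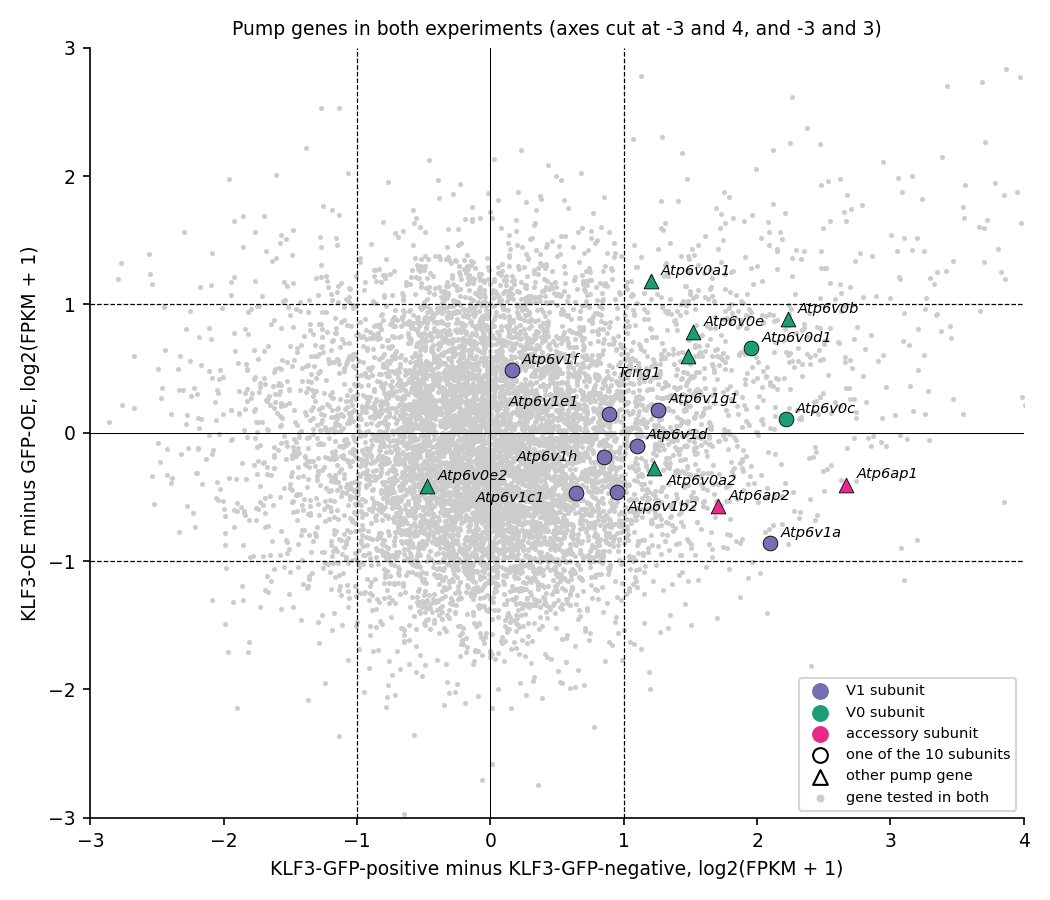
Difference in log2(FPKM + 1) between the sorted groups (horizontal) and between the overexpressing groups (vertical) for the 10 subunits (circles), the other pump genes compared in both (triangles) and all 8887 genes compared in both (grey), with dashed lines at the 2-fold limits; grey points outside the axes are not drawn. The pump genes other than Atp6v0e2 lie right of 0, and vertically they spread from -0.86 to 1.18, with signs near 0 that depend on the scaling.

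Of the 8887 genes compared in both experiments, 10.4% were above the limit in sorted cells and past neither limit in overexpressing cells, where 5 of the 10 subunits stood, and 66.5% were past no limit, where the other 5 stood. The genes nearest to the subunits' pair of medians (1.02 and 0.004), by Euclidean distance over the 2 differences, were Tnfrsf21 (1.03 and -0.004), 2510039O18Rik (1.02 and 0.01) and Nus1 (1.03 and 0.02).

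Assembly and regulation of the pump was followed in 12 genes, 11 of them listed in each table. In sorted cells 1 of 9 was above the limit and none below, against 13.8% and 8.32% of all genes, with a median of 0.44. The gene above it was Vma21, a chaperone of V0 assembly, with 24.3 FPKM in negative and 59.8 FPKM in positive cells (1.27). The other V0 assembly factors, Tmem199 (42.7 and 61.3 FPKM, 0.51) and Ccdc115 (19.3 and 26.5 FPKM, 0.44), stayed within it. The rabconnectin and RAVE genes, whose products bring V1 to V0, had differences of -0.20 (Dmxl1), -0.35 (Dmxl2) and -0.15 (Rogdi), and Wdr7 (0.1 and 0.59 FPKM) was too low to be compared. The TLDc genes had 0.58 (Ncoa7), -0.56 (Oxr1) and 0.99 (Tbc1d24), and Tldc1 (0.47 and 0.57 FPKM) was too low.

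In overexpressing cells 2 of 11 assembly and regulation genes were below the limit and none above, with a median of -0.35. Of all genes 10.1% were below and 6.6% above. Dmxl1 had 3.36 FPKM in GFP-OE and 1.15 FPKM in KLF3-OE cells (-1.02), and Tldc1 had 6.70 and 2.44 FPKM (-1.16). Vma21 had 3.72 and 4.26 FPKM (0.16), Tmem199 32.9 and 33.2 FPKM (0.01) and Ccdc115 14.3 and 20.6 FPKM (0.50). The others had -0.49 (Dmxl2), -0.35 (Wdr7), -0.15 (Rogdi), 0.16 (Ncoa7), -0.52 (Oxr1) and -0.72 (Tbc1d24).

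The MiT/TFE factors are the transcription factors that read the CLEAR element. Tfec was listed at the lowest value, 0.1 FPKM, in KLF3-GFP-negative cells and had 27.3 FPKM in positive cells, and it had 0.31 FPKM in GFP-OE and 3.40 FPKM in KLF3-OE cells (1.75). It was the only one of the family above the limit in either experiment. Tfeb, the best known regulator of lysosomal genes, had 2.2 and 4.34 FPKM in sorted cells (0.74) and 10.7 and 16.4 FPKM in overexpressing cells (0.57). Tfe3 had 4.54 and 6.05 FPKM in sorted cells (0.35) and 31.4 and 27.8 FPKM in overexpressing cells (-0.17). Mitf had 0.63 and 0.11 FPKM in sorted cells, too low to be compared, and 2.25 and 0.96 FPKM in overexpressing cells (-0.73). The RefSeq windows that hold TCACGTGA belong to Atp6v1a and Atp6v0d1, with differences of 2.10 and 1.96 in sorted cells and of -0.86 and 0.66 in overexpressing cells. The searched windows without it belong to Atp6v0c (2.21 in sorted and 0.11 in overexpressing cells), Atp6v1d (1.10 and -0.10), Atp6v1e1 (0.89 and 0.14) and Atp6v1f (0.16 and 0.49). A link between the motif and the differences was not tested.

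Other lysosomal genes were set beside the pump. Of all genes in sorted cells, 13.8% were above the limit and 8.32% below. Of 8 lysosomal membrane proteins compared in sorted cells, 7 were above the limit, with a median of 1.61. The tetraspanin Cd63 (3.67), the membrane glycoprotein Lamp1 (2.50) and the sialic acid transporter Slc17a5 (2.32) had the largest differences and Cln3 (0.23) the smallest. Of 10 lysosomal ion and lipid transporters, 5 were above the limit and all above 0, with a median of 1.14, from 0.28 for the chloride-proton exchanger Clcn3 to 2.66 for its relative Clcn5, followed by the channel Tpcn1 (1.96). Of 12 genes of the mTORC1 platform on the lysosome, 2 were above the limit (the Rag GTPase Rragc, 1.17, and the Ragulator subunit Lamtor3, 1.09) and 1 below (the kinase Mtor, -1.05), with a median of 0.43.

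In overexpressing cells these lists had medians of -0.53, -0.34 and -0.39, all below the -0.18 of all genes. Of all genes 6.6% were above the limit and 10.1% below. Among the membrane proteins Cd63 (1.61) was above and Lamp2 (-1.14) below the limit, and Cln3 had 1.0, just within it. Among the transporters Clcn3 (-1.48) and Clcn6 (-1.03) were below it and none of 12 above, with Clcn5 (0.59) highest. Of 16 mTORC1 platform genes, Lamtor4 (1.11) was above and Rragb (-1.39) and Fnip1 (-1.12) were below.

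The mitochondrial ATP synthase is the related rotary machine that makes ATP. None of its 17 genes compared was past the limit in sorted cells, against 13.8% of all genes above and 8.32% below. Their median was 0.01, with a range from -0.58 (Atp5s) to 0.58 (Atp5g3), and Atp5a1 had -0.41. In overexpressing cells 9 of 17 were above the limit, against 6.6% of all genes, with a median of 1.02. Atp5e (1.82), Atp5k (1.54) and Atp5d (1.36) were highest, and Atp5a1 (-0.35) was lowest. The vacuolar pump had the higher median of the pair in sorted cells and the mitochondrial enzyme in overexpressing cells, on the values as deposited. Among all genes of the overexpressing cells, the highest of 5 groups by mean level had a median of 0.31. The shortest of 5 groups by span had a median of 0.35. The part of level and span in the differences of the mitochondrial genes was not tested.

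**Figure D5:**
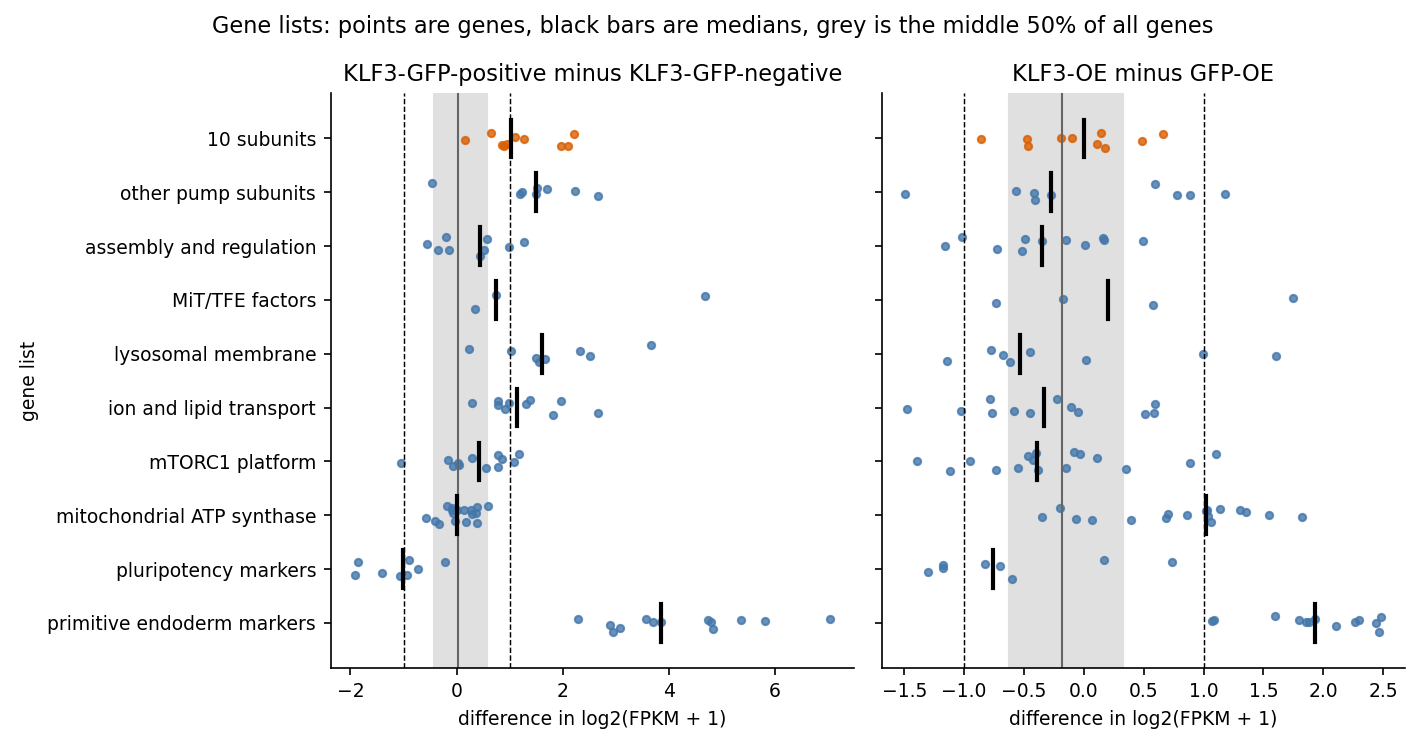
Difference in log2(FPKM + 1) of each gene compared (points, spread vertically for display) in 10 gene lists, with black bars at the list medians, the middle 50% of all genes in grey, the median of all genes as a thin line and dashed 2-fold limits; the horizontal scales of the panels differ. The 10 subunits (orange) have medians of 1.02 in sorted and 0.004 in overexpressing cells, the latter near 0 with a sign that changes with the scaling.

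Markers of cell types moved with the groups. Of all genes, 13.8% were above and 8.32% below the limit in sorted cells. The shares in overexpressing cells were 6.6% and 10.1%. Of 8 pluripotency markers of mESCs, 4 were below the limit in positive cells (median -1.0), from Sox2 (-1.92), Nanog (-1.85) and Esrrb (-1.40) to Tfcp2l1 (-0.22). The 8 summed to 21028 FPKM in negative and 11192 FPKM in positive cells. The highest single marker alone had 20569 and 10977 FPKM, so these sums say little about the others. In KLF3-OE cells 6 of 8 were below 0 (median -0.76) and 3 below the limit, Nanog (-1.30), Esrrb (-1.18) and Klf4 (-1.18), and Dppa5a (0.74) was highest. The 8 summed to 5589 FPKM in GFP-OE and 7789 FPKM in KLF3-OE cells, of which Dppa5a alone had 3794 and 6334 FPKM. The lowest level among the 8 was 10.1 FPKM in negative and 3.21 FPKM in positive cells. It was 20.8 FPKM in GFP-OE and 12.4 FPKM in KLF3-OE cells, so markers of the labelled cell type were present in all 4 columns. All 13 primitive endoderm markers were above the limit in both experiments, with medians of 3.85 and 1.93. They summed to 58.6 FPKM in negative and 1844 FPKM in positive cells and to 249 FPKM in GFP-OE and 982 FPKM in KLF3-OE cells. The endocytic adaptor Dab2 (7.04) and the basement membrane collagens Col4a1 (5.81) and Col4a2 (5.35) had the largest differences in sorted cells and Sox7 (2.28) the smallest. In overexpressing cells Col4a1 (2.48), Lama1 (2.46) and Col4a2 (2.44) had the largest and Pdgfra (1.07) the smallest. Fewer cells of a type and less RNA per cell cannot be told apart in such bulk samples, and the part of these markers in the differences of the subunits was not tested.

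Of the trophoblast markers, 2 of 4 compared were above the limit in sorted cells, against 13.8% of all genes. Both were keratins (Krt18, 3.75, and Krt8, 3.43). In overexpressing cells 3 of 6 were above it (Krt18, 3.18, Krt8, 2.70, and Hand1, 1.5), against 6.6% of all genes. Tfap2c was lowest in both experiments (-0.94 and -0.95). Of 9 fibroblast or feeder markers, 3 were listed in the sorted cells, with sums of 0.81 and 0.61 FPKM, and 5 in the overexpressing cells, with sums of 3.95 and 4.51 FPKM. Macrophages and osteoclasts are rich in this pump, and of 9 of their markers 3 were listed in each table. These summed to 10.4 FPKM in negative and 25.3 FPKM in positive cells, mainly through Cd68 (4.5 and 15.0 FPKM, 1.54), a lysosomal glycoprotein, and Acp5 (5.75 and 10.1 FPKM, 0.71), a lysosomal phosphatase, and to 21.0 FPKM in GFP-OE and 14.6 FPKM in KLF3-OE cells. The lowest of the 3 listed had 0.15 and 0.16 FPKM in negative and positive cells, and 0.39 and 0.1 FPKM in GFP-OE and KLF3-OE cells. Ptprc, Adgre1, Fcgr1, Lyz2 and Ctsk were not listed in either table.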

How the data were processed

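RNA-seq was done on 8 samples, which were put into 4 conditions by their labels. The authors deposited FPKM, 1 column per condition with the mean of 2 samples rounded to 2 decimals, with 0.1 as the lowest value. Reads had been aligned to mm10 with the GENCODE annotation, and the submitters' processing notes name STAR (version 2.6.0) and Cufflinks (version 2.2.1). The counting strand setting is not given in the sources used here. Depth is unknown, since whole reads cannot be recovered from averaged and rounded FPKM, and no interval for counting error is given.

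Differences were computed as log2(FPKM + 1) between the columns of a table for genes that average 1 FPKM or more and counted past a 2-fold limit. Where an identifier had several loci, the one with the highest level was kept. Starts were converted to count from 1. Limma, planned for columns per replicate, could not be run. The subunits and the 12 other lists were chosen with earlier results of these data known. Named genes were all subunits, other pump, assembly and MiT/TFE genes, Klf3, the 3 genes nearest to the subunits' medians and, in each other list, the 3 with the largest absolute difference and the lowest and highest; 1 gene that met the rule is not reported here. The Y-linked genes were added after their values were seen. Alternatives were a pseudocount of 0.1 FPKM, a floor of 0.1 FPKM, no minimum, a minimum of 5 FPKM, median-ratio scaling, quantile normalization, and removal of a lowess trend (fraction 0.3) with genomic span, alone and after scaling. Transcripts of GENCODE M21 were compared with BLAST (version 2.17.0). Python (version 3.11.15) with pandas (version 2.3.3) and statsmodels (version 0.14.6) was used, and the scripts were tested on simulated data.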

Additional observations from a re-analysis of the deposited data

How the results depend on the processing

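Each subunit's difference in each experiment was recomputed under 8 alternatives. Of these 160 values, 146 kept their sign and their side of the 2-fold limit, and the other 14 changed one or the other, none of them being a value past the limit that changed sign. In sorted cells all 10 subunits had a difference above 0 under all 8, and 4 or 5 were above the limit. The 4 were found with quantile normalization, where 11.8% of all genes were above it. Under the alternatives this share of all genes ranged from 10.1% without a minimum to 18.6% with the floor of 0.1 FPKM. The median of the 10 moved from 1.02 to 0.99 with median-ratio scaling, 0.89 with quantile normalization and 0.99 with median-ratio scaling and the span trend removed, which put it below the limit of 1. In overexpressing cells the median moved from 0.004 to -0.11 with quantile normalization and -0.20 with the span trend removed. The medians of all genes under these settings were -0.03 and -0.22. The number above the limit there was 1 (Atp6v0d1, 1.09) with median-ratio scaling and the span trend removed, where 6.70% of all genes were above it. The number was 0 otherwise, with 3.94% to 10.4% of all genes above the limit. The cause of these changes was not tested. No paired analysis was possible because each column is a mean over both replicates, and for the same reason leaving out a replicate and the replicate block were not run. With neither spread nor depth known, a difference near the limit, such as that of Atp6v1b2 (0.95) or Atp6v1d (1.10), cannot be placed on one side of it.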
